A study of Mus musculus with 8 samples.

Results

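The angiopoietin and Tie system was followed through 9 genes of 56691 in the deposited count table: the ligand genes Angpt1, Angpt2 and Angpt4, the receptor genes Tek and Tie1, the receptor phosphatase gene Ptprb, and the angiopoietin-like genes Angptl2, Angptl4 and Angptl6. The 9 genes were selected on family membership with earlier results of the same comparison already known. Their differences between groups are therefore a description, and an adjusted p below places a gene among all genes tested without being independent support. The tissue was tumour formed in C57BL/6J mice by MC38, a mouse colon adenocarcinoma cell line that grows in mice of that strain with an intact immune system. The 4 control libraries came from mice labelled as controls, with no vehicle given in the labels, and the 4 C26 libraries from mice given C26, an agent known only by that code, every other day over 2 weeks at a dose of 10 mg/kg. All mice carried the same cell line, no genotype, age or sex was labelled, and nothing stated that each library was a separate animal, so p-values measure the spread between these libraries.

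Angiopoietin 1 and angiopoietin 2 bind the endothelial receptor tyrosine kinase Tie2, which Tek encodes. Angiopoietin 1, made largely by perivascular cells, activates Tie2 and steadies vessels, while angiopoietin 2, released by endothelial cells, acts as a partial agonist or as an antagonist depending on context. Tie1 is a related receptor without a firmly established angiopoietin of its own that modulates Tie2, and the phosphatase VE-PTP, encoded by Ptprb, removes phosphate from Tie2. Most angiopoietin-like proteins share the coiled-coil and fibrinogen-like architecture but do not bind Tie2 or Tie1.

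Across the 8 libraries, total counts ran from 17075176 to 21517425. Of the 9 genes, 8 passed edgeR's low-count filter and Angpt4 did not. In the C26 tumours Tek and Ptprb were called higher and Angptl6 was called lower, by edgeR's quasi-likelihood test at an adjusted p under 0.05 over 15755 genes. Over all genes tested, 3.64% were called higher and 4.12% lower. Of all calls 46.9% were higher, and 78.7% when libraries were scaled by total size. The median log2 fold change of the 8 tested members was 0.28, against 0.01 over all genes tested, and 5 of the 8 lay above 0. Epithelial genes, looked up after the data were seen, were nearly absent from these tumours: Krt8 and Krt18 had at most 2 counts in any library, Epcam at most 6 and the intestinal factor gene Cdx2 had 0 counts in all 8, whereas Cdh1 stood at 2.39 to 3.81 CPM.

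Promoter sequences are shown for Tek and Angptl6, 2 of the 3 called genes, and for Tie1, the sister receptor of Tek, because these are the genes whose levels the results below compare. Each run is the 250 bases before and 50 after the RefSeq start of the gene on GRCm38.p6, written 5′ to 3′ along the gene, at chr4:94739039-94739338 on the plus strand for Tek, chr4:118489800-118490099 on the minus strand for Tie1 and chr9:20879661-20879960 on the minus strand for Angptl6. Capitals mark GGAA or, on the other strand, TTCC, the core that ETS factors read in many endothelial promoters, and in Tek also GATAAG, which GATA factors bind.
Tek: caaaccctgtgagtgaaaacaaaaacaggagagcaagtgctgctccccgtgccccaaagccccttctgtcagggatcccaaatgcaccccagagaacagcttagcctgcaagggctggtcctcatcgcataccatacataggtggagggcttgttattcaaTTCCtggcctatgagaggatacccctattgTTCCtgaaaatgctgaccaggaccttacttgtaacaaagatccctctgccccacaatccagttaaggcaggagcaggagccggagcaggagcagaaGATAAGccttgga
Tie1: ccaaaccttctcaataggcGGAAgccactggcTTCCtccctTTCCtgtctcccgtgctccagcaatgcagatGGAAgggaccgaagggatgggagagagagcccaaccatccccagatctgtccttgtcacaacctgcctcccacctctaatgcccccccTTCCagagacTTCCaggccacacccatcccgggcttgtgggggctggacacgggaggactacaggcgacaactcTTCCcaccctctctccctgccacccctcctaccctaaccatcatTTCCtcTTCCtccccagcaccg
Angptl6: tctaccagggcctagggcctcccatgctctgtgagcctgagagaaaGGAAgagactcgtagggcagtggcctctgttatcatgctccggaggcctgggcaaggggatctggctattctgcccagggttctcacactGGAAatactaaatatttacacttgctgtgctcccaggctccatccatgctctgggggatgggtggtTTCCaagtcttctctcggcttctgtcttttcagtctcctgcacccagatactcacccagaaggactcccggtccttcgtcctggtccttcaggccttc

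The Tie1 window held 9 matches to the ETS core, a number that 1.59% of 32851 promoter windows of the same length reached. In the GENCODE M21 annotation Tie1 begins further upstream than in RefSeq, at 118490061. By that start most of the Tie1 window lies inside the gene. The Tek window held 2 matches, at -89 and -59 bases from the start of the gene, and the Angptl6 window held 3, counts that 84.6% and 66.3% of promoter windows reached. At least 1 match occurred in 96.0% of windows. The GATA motif, which in Tek begins 38 bases into the gene, was searched on both strands and occurred in 7.44% of windows. No match to the hypoxia response core ACGTG (19.6% of windows), the FOX motif GTAAACA (3.65%), the ATF4 composite TGATGNAA (3.97%) or the SP and KLF motif GGGCGG (35.7%) lay in these 3 windows, which says only that those letters are not there. Among the other members, Angpt4 had 5 ETS cores and Angptl2 had 2.

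Levels between genes were compared as CPM per kilobase of exon, since longer transcripts collect more reads. Angptl2 stood highest at a mean of 32.4 CPM per kb over the 8 libraries, with no library of the next gene reaching its lowest value of 29.0. Angptl6 (6.57), Angptl4 (5.17), Angpt1 (4.21), Angpt2 (1.78) and Tie1 (1.37) followed, and neighbours in this order had overlapping ranges. Angpt1, with a lowest value of 3.35, and Angpt2, with a highest value of 3.39, overlapped only narrowly. Ptprb (0.52) and Tek (0.47) did not differ beyond their spread from each other and lay below every Tie1 value. Angpt4 averaged 0.038 CPM per kb. Per kb of its longest coding transcript Angptl2 stood at 61.1 CPM, and the order of the 9 members was the same on that scale.

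**Figure D1:**
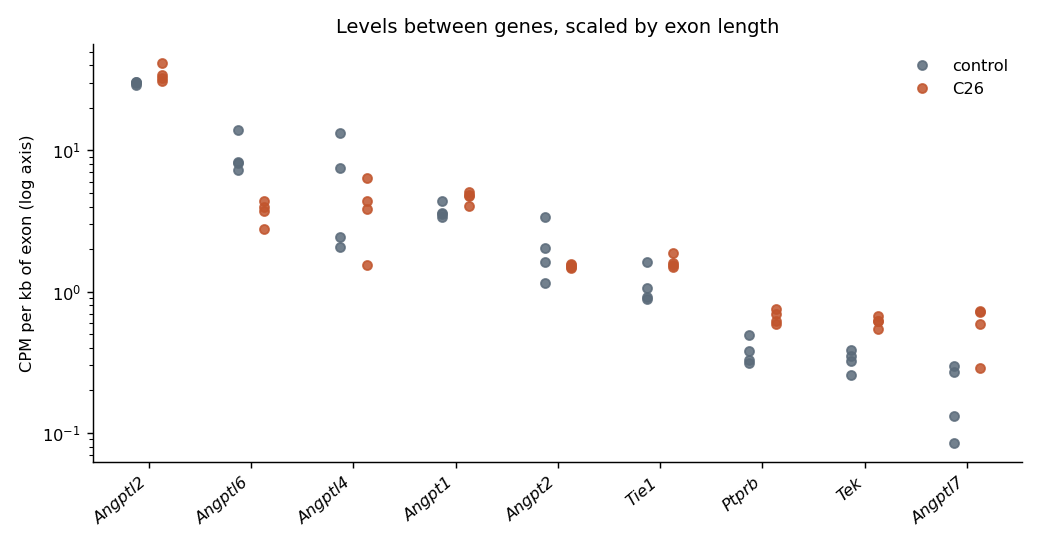
CPM per kilobase of exon on a log axis for each gene (horizontal axis, ordered by mean), 1 point per library, for the 8 tested members and Angptl7. Angptl2 averaged 32.4 and Tek 0.47 CPM per kb, and Angptl6 is the gene whose control points all lie above its C26 points.

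Tek (chromosome 4, 94739289 to 94874976, plus strand) encodes the angiopoietin receptor Tie2. Its level was 1.51, 1.64, 1.83 and 1.21 CPM in control libraries 1 to 4 and 2.90, 2.54, 3.15 and 2.94 CPM in C26 libraries 1 to 4. Every C26 library lay above every control library, as it did for 7.91% of all genes tested. The means were 1.55 ± 0.259 and 2.88 ± 0.250 CPM (SD, n = 4 each), which made the fitted level 1.85-fold higher (log2 0.89 ± 0.205 SE, adjusted p = 0.0168 in edgeR). Its promoter window is the one above that carries GATAAG. These levels rest on few reads, from 20 to 37 counts in control and 49 to 69 in C26, and the exact Poisson 95% intervals of the neighbouring values, 26.1 to 51.0 counts for control library 3 and 36.3 to 64.8 for C26 library 2, overlapped. The call ended without control library 1 (adjusted p = 0.0502) and without C26 libraries 2 and 3 together (adjusted p = 0.0521), at log2 fold changes of 0.87 and 0.91.

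Ptprb (chromosome 10, 116275523 to 116389535, plus strand) encodes VE-PTP, the phosphatase that acts on Tie2. Its level was 4.198, 4.39, 6.52 and 5.03 CPM in control libraries 1 to 4 and 9.98, 9.29, 7.89 and 8.26 CPM in C26 libraries 1 to 4. The groups did not overlap, the lowest C26 library being number 3 and the highest control library also number 3. The fitted level was 1.76-fold higher (log2 0.81 ± 0.159 SE, n = 4 each, adjusted p = 0.00767 in edgeR), with means of 5.04 ± 1.06 and 8.85 ± 0.956 CPM. The call was kept with each library left out in turn.

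Tie1 (chromosome 4, 118471191 to 118490061, minus strand) encodes the second receptor of the family. Its level was 4.48, 4.33, 7.91 and 5.21 CPM in control and 9.19, 7.58, 7.84 and 7.29 CPM in C26 libraries 1 to 4. Control library 3 was inside the C26 range and the other 3 control libraries were below it. The log2 fold change was 0.54 ± 0.181 (SE, n = 4 each), which was not called (edgeR adjusted p = 0.0767). Without control library 3 it was 0.77 and was called (edgeR adjusted p = 0.0166), as it also was by DESeq2 (adjusted p = 0.0481) and limma-voom (adjusted p = 0.0327). Tie1 was called in only 5 of 18 alternatives. With any other single library left out its edgeR adjusted p ran from 0.107 to 0.197.

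Angpt1 (chromosome 15, 42424723 to 42676977, minus strand) encodes the activating Tie2 ligand. Its level was 18.4, 18.7, 23.0 and 17.5 CPM in control and 25.3, 21.1, 24.7 and 26.5 CPM in C26 libraries 1 to 4. Control library 3 and C26 library 2 made the groups overlap. The means were 19.4 ± 2.45 and 24.4 ± 2.31 CPM (SD, n = 4 each), a log2 fold change of 0.33 ± 0.106 (SE) that was not called by edgeR (adjusted p = 0.0653). It was called by DESeq2 (adjusted p = 0.0449) and by limma-voom (adjusted p = 0.0354), without control library 3 (log2 0.42, edgeR adjusted p = 0.0343) and without C26 library 2 (log2 0.39, edgeR adjusted p = 0.0403). Angpt1 was called in only 6 of 18 alternatives, and not with any other single library left out. An annotated antisense RNA, Gm17473, shares 737 exon bases with Angpt1 and had 1 to 15 counts against 288 to 542 for Angpt1.

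Angpt2 (chromosome 8, 18690263 to 18741562, minus strand) encodes the context-dependent ligand and lies within the Mcph1 gene on the opposite strand, with 0 shared exon bases. Its level was 5.94, 4.28, 12.5 and 7.46 CPM in control libraries 1 to 4 and 5.49, 5.66, 5.79 and 5.42 CPM in C26 libraries 1 to 4. The C26 libraries sat close together inside the wide control range, and control library 3 held the highest value. The log2 fold change was -0.43 ± 0.259 (SE, n = 4 each) and was not called (edgeR adjusted p = 0.319). Without control library 3 it was -0.075 (edgeR adjusted p = 0.859). The SD was 3.55 CPM in control and 0.168 CPM in C26, and the difference in spread was not tested. Angpt4 (chromosome 2, 151911210 to 151945337, plus strand), a further Tie2 ligand gene, had 7 counts in all over the control libraries and 7 over the C26 libraries, from 0 to 4 in a library, so no difference could be seen at this depth.

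**Figure D2:**
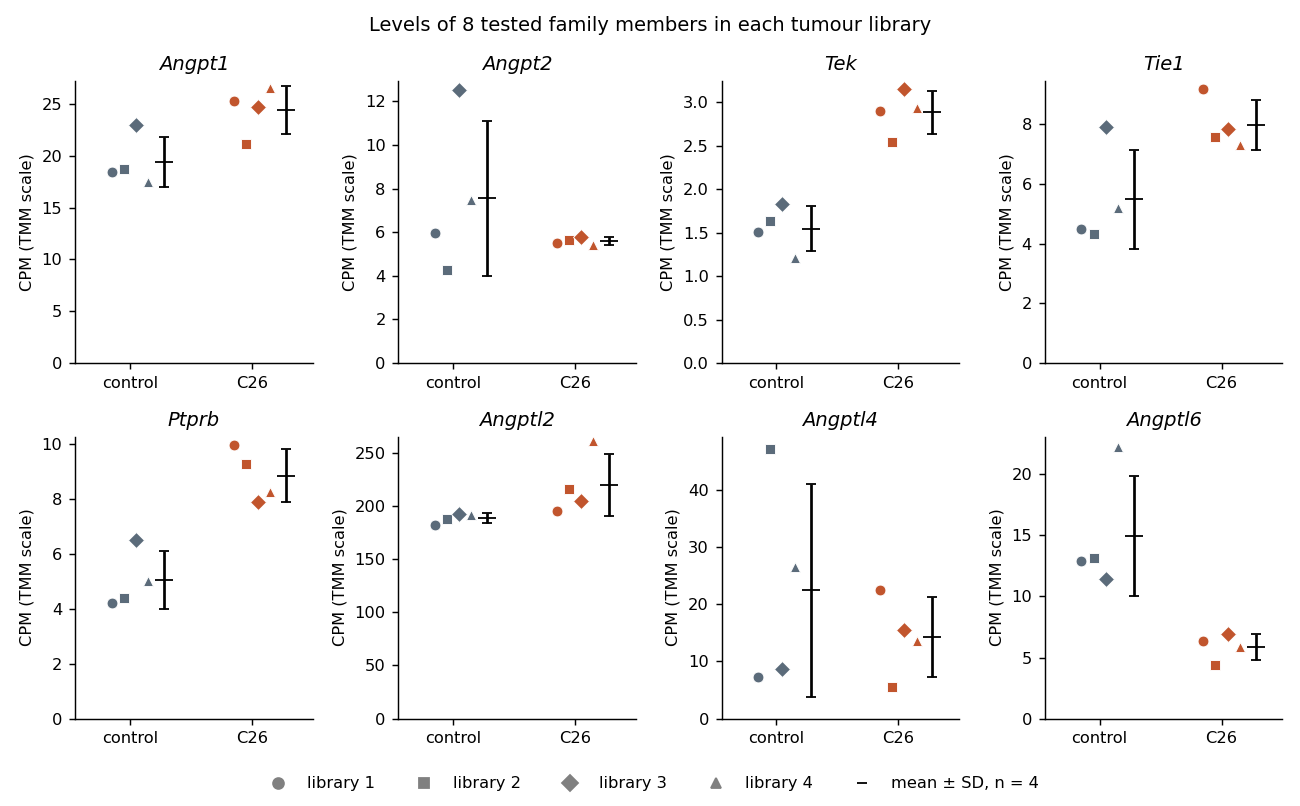
CPM on the TMM scale (vertical axis, starting at 0) in the 4 control and 4 C26 libraries for the 8 members that passed the low-count filter, 1 marker shape per library number, with the mean and SD beside the points. The groups are separate for Tek, Ptprb, Angptl2 and Angptl6, and control library 3 is the highest control for Angpt1, Angpt2, Tek, Tie1, Ptprb and Angptl2.

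Ratios within a library cancel its scaling, apart from the prior count of 2. The log2 ratio of Angpt2 to Angpt1 was -1.61, -2.10, -0.87 and -1.22 in control and -2.18, -1.88, -2.07 and -2.27 in C26 libraries 1 to 4, so that Angpt1 CPM exceeded Angpt2 CPM in every library. Control library 2 lay within the C26 values and the other 3 control libraries above them. The group means were -1.45 ± 0.53 and -2.10 ± 0.17 (SD, n = 4 each). The log2 ratio of Tie1 to Tek had means of 1.73 ± 0.36 and 1.43 ± 0.17 with overlapping groups, and that of Ptprb to Tek 1.63 ± 0.29 and 1.58 ± 0.25, also overlapping.

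Tek, Tie1 and Ptprb are endothelial genes, and in a tumour homogenate a change in the number of endothelial cells and a change in RNA per cell cannot be told apart. A list of 20 other endothelial genes, such as Pecam1 and Cdh5, had 19 tested members, of which 2 were called higher (Mmrn2 and Podxl), 0 lower, and 16 lay above 0, with a median log2 fold change of 0.42. None of the 20 was at 0 throughout, though Vwf missed the low-count filter. Their mean log2 CPM was 2.62, 2.58, 3.27 and 2.83 in control and 3.31, 3.09, 3.24 and 3.02 in C26 libraries 1 to 4, overlapping at control library 3, and differed by 0.34 (exact two-sided permutation p = 0.114, adjusted p = 0.131 over 8 marker lists). Without control library 3 it differed by 0.49 (exact permutation p = 0.0286, not adjusted). With any other single library left out, the exact permutation p ran from 0.143 to 0.2. The summed CPM of the list ran from 175 to 260 in control and 217 to 274 in C26.

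Measured against this list within each library, the log2 ratio of Tek was -2.11 ± 0.31 in control and -1.59 ± 0.14 in C26, that of Ptprb -0.48 ± 0.06 and -0.01 ± 0.16, and that of Tie1 -0.38 ± 0.08 and -0.15 ± 0.07 (SD, n = 4 each). All 3 had every C26 library above every control library, Tie1 by the narrow gap between -0.26 in control library 3 and -0.25 in C26 library 3. The ratio of Angpt2 to the list went the other way, with -0.02, -0.45, 0.39 and 0.09 in control and -0.82, -0.56, -0.68 and -0.55 in C26 libraries 1 to 4, and the groups did not overlap. The share of all genes tested with a separate ratio to the list was not computed, so separation does not single out these genes. Log2 fold changes within the list itself ran from -0.12 for Ecscr to 0.87 for Mmrn2. The ratio of Angpt1 to the list was 1.46 ± 0.20 and 1.45 ± 0.18, overlapping. With the endothelial level as a covariate in edgeR, Tek (log2 0.78 ± 0.271 SE, adjusted p = 0.110) and Ptprb (log2 0.55 ± 0.178 SE, adjusted p = 0.0870) were no longer called. Without the covariate the SE was 0.205 for Tek and 0.159 for Ptprb. Angpt2 was called lower in that edgeR fit (log2 -0.91 ± 0.189 SE, adjusted p = 0.0170), the only 1 of 18 alternatives in which it was called. Control library 3 was the highest control for both Angpt2 and the list.

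**Figure D3:**
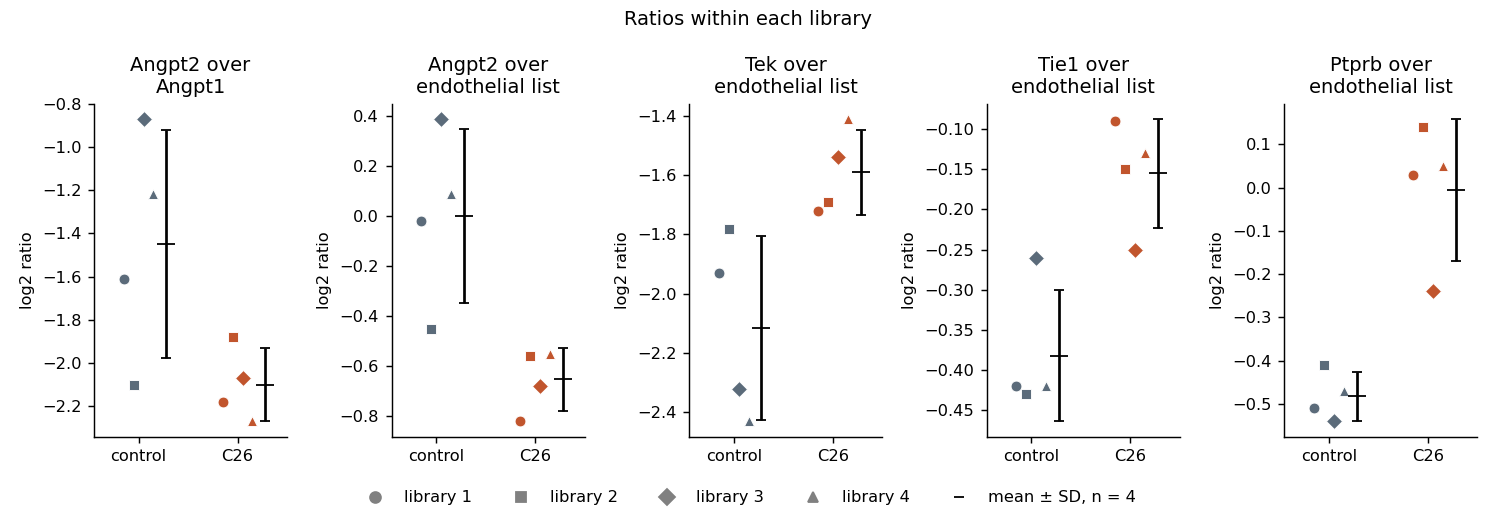
Log2 ratios within each library (vertical axis of each panel) of Angpt2 to Angpt1 and of Angpt2, Tek, Tie1 and Ptprb to the mean of the endothelial list, 1 marker shape per library number, with the mean and SD beside the points. The Angpt2 to Angpt1 ratio overlaps between groups, while the other 4 ratios are separate, lower in C26 for Angpt2 and higher for the receptors and Ptprb. The share of all genes with a separate ratio to the list was not computed.

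Marker lists of other cell types were measured in the same libraries. The list of mural cells, which wrap vessels, had 1 of 11 tested members called higher. It was the pericyte gene Rgs5 (11.01 ± 2.60 to 19.1 ± 3.30 CPM, edgeR adjusted p = 0.00953). Of the 11, 9 had a log2 fold change above 0, while the pericyte genes Cspg4 (-0.121) and Kcnj8 (-0.135) lay below. Pdgfrb stood at 0.08 and Higd1b at 0.072. Summed levels of the mural list were 260 to 349 CPM in control and 308 to 362 in C26. The mean level of the mural list differed by 0.48 on the log2 scale (exact permutation p = 0.0857, adjusted p = 0.114). It differed by 0.30 without Des, a gene also made by skeletal muscle and left out after the data were seen. Des stood at 2.50, 6.34, 4.99 and 1.64 CPM in control and 7.87, 48.3, 21.4 and 10.3 CPM in C26 libraries 1 to 4. The lymphatic endothelial list had 0 of 3 tested members called by edgeR, with Lyve1 at an adjusted p = 0.0503 and Flt4, the receptor for lymphatic growth factors, at an adjusted p = 0.0885 and Pdpn at a log2 fold change of -0.01 and an adjusted p = 0.966. Prox1, Ccl21a and Reln of that list missed the low-count filter. The summed level of the list was 83.5 to 104 CPM in control and 96.2 to 99.4 CPM in C26. Most of that sum was Pdpn, at 80.8 to 101 CPM in control and 88.7 to 94.3 CPM in C26. Lyve1 stood at 0.90 to 1.93 and 2.03 to 4.70 CPM, and Flt4 at 1.23 to 1.94 and 2.05 to 3.17 CPM. The mean log2 level of the list differed by 0.51 (exact permutation p = 0.0286, the smallest possible with 70 arrangements, adjusted p = 0.0914). The fibroblast list differed by 0.51 (exact permutation p = 0.0571, adjusted p = 0.0914), with 1 of 10 members called higher, Postn. Control library 3 (mean log2 CPM 6.81) lay above C26 library 3 (6.76), so the list levels overlapped. Of the 10, 9 had a log2 fold change above 0, while Thy1 (-0.098) lay below. Summed levels of the fibroblast list were 3126 to 4918 CPM in control and 5428 to 7606 CPM in C26. Much of these sums was Col3a1, at 1661 to 2771 CPM in control and 2965 to 4354 CPM in C26. The red blood cell list was at a mean log2 CPM of 1.51, 1.70, 3.15 and 1.30 in control and 0.57, -0.23, 0.51 and 0.10 in C26 libraries 1 to 4. Every C26 library lay below every control library, control library 3 was the highest, and the means differed by -1.68 (exact permutation p = 0.0286, adjusted p = 0.0914), with 1 of 5 members called lower, Hbb-bt. The part of these cells in the results above was not tested. Of 6 markers of perivascular macrophages, some of which carry Tie2, 4 were tested, none was called in either direction, and their mean level differed by 0.08 (exact permutation p = 0.8).

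Skeletal muscle RNA was uneven between libraries, with summed levels of 15 muscle genes of 10.7 to 49.5 CPM in control and 27.0 to 756 CPM in C26, and means that differed by 3.40 on the log2 scale (exact permutation p = 0.0571, adjusted p = 0.0914). C26 library 2, the highest in muscle RNA, was the lowest C26 library for Tek, Angpt1, Angptl4 and Angptl6. With the muscle level as a covariate in edgeR 0 members were called, against 6 at an unadjusted p under 0.05, and the log2 fold changes were 0.94 for Tek, 0.87 for Ptprb and -1.06 for Angptl6. The SE of Tek rose from 0.205 to 0.313 in that fit. With C26 libraries 2 and 3 both left out, those richest in muscle RNA, Ptprb was still called higher and Angptl6 lower.

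Angptl6 (chromosome 9, 20873808 to 20879727, minus strand) encodes a secreted factor, also called angiopoietin-related growth factor, that is studied for effects on vessels and energy metabolism. Its level was 12.9, 13.2, 11.4 and 22.2 CPM in control libraries 1 to 4 and 6.34, 4.41, 6.89 and 5.88 CPM in C26 libraries 1 to 4. Every C26 library lay below every control library, as for 8.14% of all genes tested, and control library 4 stood well above the other controls. The means were 14.9 ± 4.91 and 5.88 ± 1.06 CPM (SD, n = 4 each), and in the fit the control level was 2.52-fold that of C26 (log2 -1.34 ± 0.206 SE, adjusted p = 0.00365 in edgeR). Counting Angptl6 itself, 12 of the 15755 genes tested fell by at least as much on the log2 scale. Without control library 4 the log2 fold change was -1.08, and the call was kept with each library left out in turn.

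The Angptl6 exons share 265 bases with A230050P20Rik, a protein-coding gene on the opposite strand. The strand setting of the counting was not given in the sources used here. Whether reads from the shared bases were counted for Angptl6, for the other gene or for neither is therefore not known. A230050P20Rik had 62, 61, 85 and 38 counts in control and 76, 64, 74 and 40 in C26 libraries 1 to 4, with overlapping groups, while Angptl6 had 273, 249, 231 and 366 counts against 120, 85, 151 and 116.

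**Figure D4:**
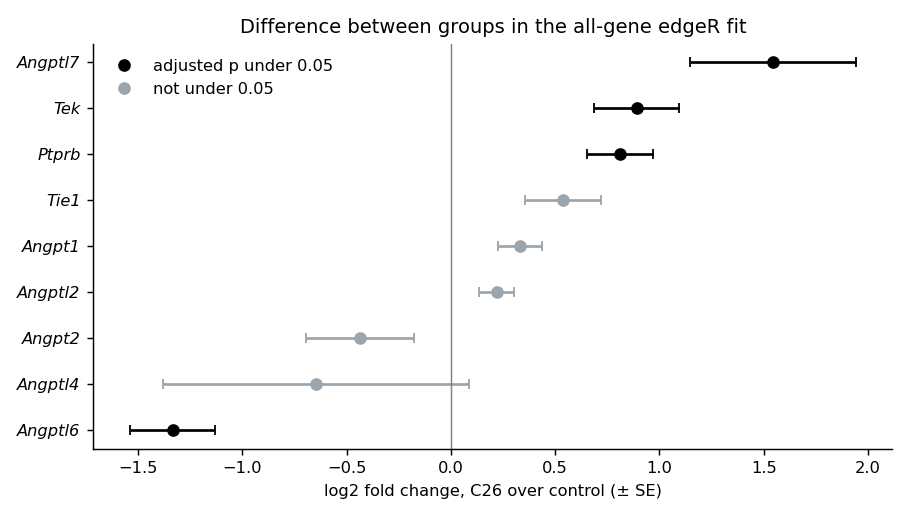
Log2 fold change of C26 over control (horizontal axis) with its SE for the 8 tested members and for Angptl7, from the edgeR fit over 15755 genes, black where the adjusted p was under 0.05. Angptl6 lies at -1.34, Ptprb at 0.81, Tek at 0.89 and Angptl7 at 1.54.

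Angptl2 (chromosome 2, 33216069 to 33247717, plus strand) encodes a secreted protein linked to inflammation and tissue remodelling, and lies within Ralgps1 on the opposite strand with 0 shared exon bases. Its level was 182, 188, 192 and 192 CPM in control and 195, 216, 205 and 261.4 CPM in C26 libraries 1 to 4. The groups did not overlap, with control library 3 just under C26 library 1, and C26 library 4 was the highest. The log2 fold change of 0.22 ± 0.0833 (SE, n = 4 each) was not called (edgeR adjusted p = 0.110), and it was 0.12 without C26 library 4 (edgeR adjusted p = 0.310). Of 5 receptor genes proposed for the protein, Itga5 was called higher (125 ± 4.17 to 146 ± 9.43 CPM, edgeR adjusted p = 0.0470), while Itgb1, Mcam, Lilrb4a and Pirb were not.

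Angptl4 (chromosome 17, 33773750 to 33781830, minus strand) encodes an inhibitor of lipoprotein lipase that hypoxia and PPAR receptors induce in many tissues. Its level was 7.31, 47.1, 8.65 and 26.5 CPM in control and 22.4, 5.45, 15.5 and 13.6 CPM in C26 libraries 1 to 4. Control libraries 1 and 3 lay below 3 of the 4 C26 libraries, and control library 2 was the highest of the 8. The log2 fold change was -0.65 ± 0.734 (SE, n = 4 each, edgeR adjusted p = 0.635), and it turned to 0.02 without control library 2. A list of 11 hypoxia genes had a mean log2 CPM of 6.60, 5.99, 6.65 and 6.68 in control and 5.79, 5.83, 6.09 and 6.26 in C26 libraries 1 to 4, and the control library highest in Angptl4 was the lowest control in that list. In the list 3 members were called lower (Higd1a, Ankrd37 and Adm), 0 higher, and the median log2 fold change was -0.54. Of 14 genes of the lipase axis 10 were tested and 1 was called, the nuclear receptor gene Ppard (30.6 ± 3.38 to 38.4 ± 3.25 CPM, edgeR adjusted p = 0.0427). Lpl itself stood at 2.87 ± 0.324 and 2.66 ± 0.143 CPM (edgeR adjusted p = 0.739).

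Among the other angiopoietin-like genes, Angptl7, a secreted protein known from the cornea and trabecular meshwork, passed the low-count filter. It had 6, 11, 13 and 3 counts in control and 30, 12, 34 and 25 in C26 libraries 1 to 4, overlapping at C26 library 2. Its log2 fold change was 1.54 ± 0.399 (SE, n = 4 each, edgeR adjusted p = 0.0278), and leaving out 1 library took away the call in 5 of the 8 cases, which were control libraries 1 and 4 and C26 libraries 1, 3 and 4 (adjusted p from 0.0544 to 0.0856 in edgeR). Angptl1 was not tested and had 18 counts in all over the control and 53 over the C26 libraries, from 0 to 7 and from 8 to 19. Angptl8, also not tested, had 0 and 2 counts.

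Further genes of Tie signalling came from a list of 18, of which 16 were tested. In that list 2 were called higher and 0 lower, and the median log2 fold change was 0.09 against 0.01 over all genes tested. Pik3r1, which encodes a regulatory subunit of the kinase PI3K downstream of Tie2, went from 57.2 ± 6.96 to 88.2 ± 15.6 CPM (SD, n = 4 each, log2 0.62, edgeR adjusted p = 0.0108). Itga5, an integrin chain that can bind angiopoietin 2, was the other. Foxo1, the transcription factor that Tie2 signalling holds in check and that drives Angpt2, stood at 11.4 ± 1.75 and 12.0 ± 1.82 CPM (edgeR adjusted p = 0.791), and the adaptor gene Dok2 at 6.14 ± 0.338 and 6.12 ± 1.14 CPM. Svep1, whose product binds Tie1, stood at 0.478 ± 0.347 and 0.989 ± 0.188 CPM (edgeR adjusted p = 0.156).

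After the group means were taken off, members varied together across the 8 libraries to different degrees. The correlation of log2 CPM was 0.926 for Tie1 with Ptprb, 0.894 for Tie1 with Angpt2 and 0.813 for Tek with Angpt1, against 0.395 for Tek with Tie1. These are descriptions over 8 libraries that share depth scaling, and control library 3 carried much of them. Without it, over 7 libraries, chosen after the data were seen, they were 0.771, 0.539, 0.681 and -0.427. Tek with Ptprb, the 2 members called higher, stood at 0.168 over 8 libraries and -0.689 over 7. Tek with Angpt2 stood at 0.223 and -0.743. The gene most like Tie1 among 13984 was Cdh5, the endothelial cadherin gene (r = 0.981), followed by Ptgs1 and Clec14a. For Angpt2 the closest were Csrnp1 (0.989), Ptger1 and Bhlhe22, for Tek Trnau1ap (0.991), Vrk3 and Tnfrsf1b, and for Ptprb Mmp15 (0.965), Hba-a1 and Lactb. Angpt1 lay closest to Galns (0.959), Washc3 and Dcun1d3, Angptl2 to Nav2 (0.991), A930012O16Rik and Htra1, Angptl4 to Eif3h (0.979), Isg20 and Adgrl1, and Angptl6 to Sspo (0.986), G6pdx and Ddx59. The 3 closest genes of each tested member were all at 0.947 or above, but they are the highest of 13984 correlations over only 8 libraries. How high such top values run among unrelated genes was not computed. The names therefore do not show that these genes vary with the member beyond these libraries.

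**Figure D5:**
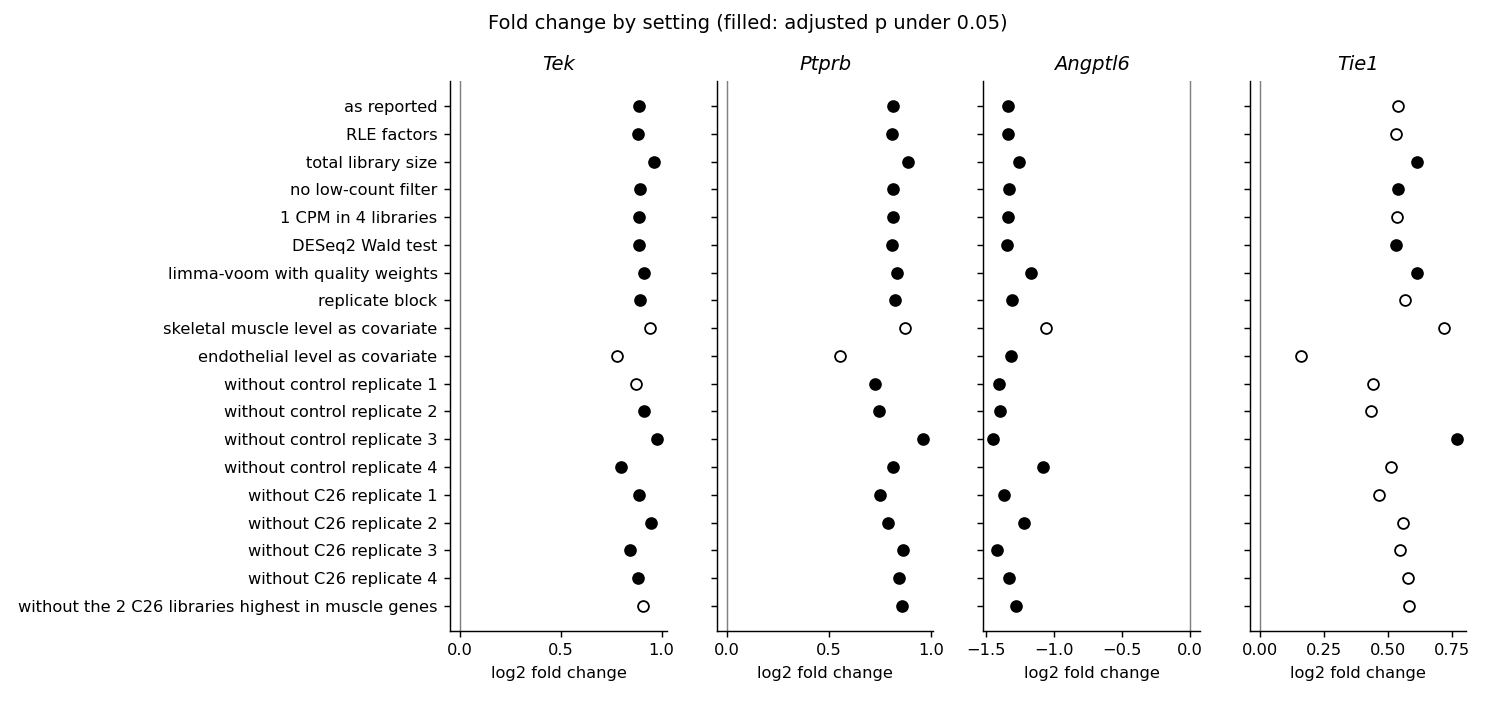
Log2 fold change of C26 over control (horizontal axes) for Tek, Ptprb, Angptl6 and Tie1 under each setting (vertical axis), filled where the adjusted p was under 0.05. Every point lies on the same side of 0 for its gene, Angptl6 runs from -1.45 to -1.06, and Tie1 from 0.16 with the endothelial covariate to 0.77 without control library 3.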

How the data were processed

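Polyadenylated RNA from 8 tumour samples was sequenced, 4 control and 4 C26, with groups taken from the treatment label. The deposited values are counts, whole numbers for each Ensembl ID that the authors left unnormalized. HISAT2 2.2.1, featureCounts 2.0.1 and Trim Galore 0.6.7, with mm10, are named in the submitters' processing notes, but Cutadapt, STAR, Picard and RSEM in their design text, and no source used here gives the annotation release or strand setting. Symbols, coordinates and exon lengths came from GENCODE M21 on GRCm38, the assembly mm10 names, and matched 52073 of 56691 rows, with the rest holding 0.769% of counts. Promoters came from RefSeq on GRCm38.p6 and matched 5 of the 9 members.

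Counts were filtered (filterByExpr, 15755 genes), scaled by TMM and tested with edgeR 4.0.16 (robust quasi-likelihood, group as sole term, two-sided, Benjamini-Hochberg adjustment, threshold 0.05) in R 4.3.3, with limma 3.58.1 and DESeq2 1.42.0 as alternatives. Levels are CPM on the TMM scale, with a prior count of 2 before taking log2. Marker list levels were compared by exact permutation over 70 arrangements, adjusted over the 8 lists with at least 3 tested members; the adipocyte list had 2. The megakaryocyte list differed by -0.31 (exact permutation p = 0.0571, adjusted p = 0.0914). Among hypoxia symbols, 1 of 12 matched no row.

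The members and lists were chosen with earlier results of these data known. Named genes were all members, other angiopoietin-like genes (1 of which is not reported here), up to 4 called members of each pathway list, and the 3 genes most correlated with each member, with others named for context. The test was checked on simulated counts before use. It recovered 25.4% of 1.25-fold, 62.7% of 1.5-fold and 74.2% of 2-fold changes, with 4 false calls among 112. Changes of these sizes can therefore go uncalled. Counting intervals cover counting error only. Settings varied were the scaling, the filter, the tool, covariates, a replicate block and the libraries left out.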

Additional observations from a re-analysis of the deposited data

Results flagged for a closer look

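Among 32 groups of 4 libraries examined, 2 held a library far from the other 3, and about 1 in 20 such groups is expected to by chance. Control library 4 stood apart for Angptl6 at 22.2 CPM, against 11.4 to 13.2 CPM in the other controls, and the C26 libraries were below all 4. Control library 2 stood apart in the skeletal muscle list at a mean log2 CPM of 1.40, against -1.24 to -1.13 in the other controls.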

How the results depend on the processing

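The count of all genes called, 1223, was 1949 with total library size, 1948 without a low-count filter, 131 with the skeletal muscle covariate, 661 with the endothelial covariate, and 643 to 1457 with a library left out. Members called higher, 2 as reported, were 5 with total library size, 4 without a filter, by DESeq2 or by limma-voom, 0 in edgeR with either covariate (5 and 3 at an unadjusted p under 0.05), 1 without the 2 C26 libraries highest in muscle genes, and 1 to 4 with a library left out (1 when control library 1 was dropped, 4 for control library 3, 3 for C26 library 2). Members called lower, 1 as reported, were 0 with the muscle covariate (1 at an unadjusted p under 0.05) and 2 with the endothelial covariate. The cause of these shifts was not tested.

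Over 18 alternatives each, the log2 fold change kept its sign for 7 of the 8 tested members, and Angptl6 was called in 17, Ptprb in 16 and Tek in 14. Angpt1 was called in 6, Tie1 in 5, Angpt2 and Angptl2 in 1 each, and Angptl4 in 0. Angptl4 ran from -0.946 to 0.02 with a library left out, and the perivascular macrophage level difference from -0.098 to 0.194. The libraries share numbers 1 to 4 in their labels. Deviations of same-numbered libraries had correlations of -0.0234, 0.135, -0.0195 and 0.0934, inside the range of differently numbered ones (-0.203 to 0.215). So few values cannot settle whether the numbers pair the libraries. With the replicate block, 1184 genes were called, and 2 members higher and 1 lower. Depth limits Tek, Angpt4, Angptl1, Angptl7 and Angptl8 most, since these had under 70 counts in every library.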
